A study of Mus musculus with 2 samples.

Results

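Lipid-associated macrophage genes are a set of 10 genes (Trem2, Spp1, Gpnmb, Fabp5, Cd9, Lpl, Lgals3, Apoe, Cd36 and Cd63) by which macrophages that take up and handle lipid are often recognised in fat, atherosclerotic plaque and tumors. The genes were taken by name, without use of their values. Of the 10 genes, 9 were among the 2000 genes of the deposited scaled table, and Lgals3 was not analysed here. They are described in tumors of the mouse pancreas, grown for 14 days from MT4, an organoid line of primary pancreatic adenocarcinoma from the KPC model. One library held cells pooled from 3 C57/BL6 Ahr fl/fl mice, in which the Ahr alleles are flanked by loxP sites and intact. The other held cells pooled from 3 LysM-Cre cKO mice, in which Cre is driven by the promoter of the lysozyme gene Lyz2, mainly active in macrophages, monocytes and neutrophils. Live cells of the whole tumor were sorted with DAPI and loaded for 10X Genomics capture. The fl/fl library had 5196 cells and the library labelled cKO had 4577.

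In a macrophage that handles lipid, TREM2 at the surface binds lipids and lipoproteins and signals through an adaptor, and CD36 takes up fatty acids and oxidised lipoproteins. LPL frees fatty acids from lipoprotein particles, APOE carries cholesterol out of the cell, and FABP5 carries fatty acids inside it. GPNMB is a membrane glycoprotein linked to lysosomes, SPP1 (osteopontin) is a secreted matrix protein, and CD9 and CD63 are tetraspanins of the cell surface and of late endosomes. AHR, the aryl hydrocarbon receptor, is a ligand-activated transcription factor, and the design asks how tumor cells differ when its gene is deleted in LysM-Cre cells.

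Because the deleted gene encodes a DNA-binding factor, the 250 bases before RefSeq transcript starts of these genes were searched for the AHR core motif GCGTG on both strands, and for the AP-1 motif TGANTCA as a second letter pattern. RefSeq promoter windows (build GRCm38.p6) were matched by symbol for 8 of the 10 genes, and none was given for Fabp5 and Lpl. For Cd36, Cd9, Cd63 and Lgals3 the window belongs to a start inside the gene as GENCODE annotates it. Apoe and Spp1 had further windows at starts inside the gene, and 11 windows were searched in all. GCGTG was found in the windows of Trem2 and Lgals3, and it is present in 28.2% of all 32851 windows of that length. TGANTCA was found in that of Trem2, and it is present in 6.75% of all windows. The windows of Trem2 and Apoe at the annotated gene start are shown. These were the genes whose highest level lay in macrophages in the cells analysed, 1 with matches and 1 without. Capitals mark GCGTG, which is read as CACGC on the strand shown, and then TGANTCA. The Trem2 window is chr17:48346151-48346400 on the plus strand, and the Apoe window is chr7:19699189-19699438 on the minus strand. A match describes the letters and shows no binding.
Trem2: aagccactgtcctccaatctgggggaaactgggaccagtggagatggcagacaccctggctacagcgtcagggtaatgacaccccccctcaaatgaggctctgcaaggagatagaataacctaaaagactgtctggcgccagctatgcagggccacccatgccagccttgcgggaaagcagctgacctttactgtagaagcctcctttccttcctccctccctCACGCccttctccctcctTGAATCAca
Apoe: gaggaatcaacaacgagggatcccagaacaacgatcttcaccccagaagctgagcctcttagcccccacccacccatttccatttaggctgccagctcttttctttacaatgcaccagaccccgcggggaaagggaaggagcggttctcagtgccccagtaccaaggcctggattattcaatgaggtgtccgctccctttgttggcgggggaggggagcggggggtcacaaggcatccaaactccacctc

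Gene positions follow GENCODE vM21 on GRCm38, and all 9 measured genes are protein coding. Trem2 lies at chr17:48346401-48354147 (plus strand), Apoe at chr7:19696109-19699188 (minus), Lpl at chr8:68880491-68907448 (plus) and Cd36 at chr5:17781690-17888801 (minus). Fabp5 lies at chr3:10012548-10016607 (plus), Gpnmb at chr6:49036546-49070929 (plus) and Spp1 at chr5:104435118-104441050 (plus). Cd9 lies at chr6:125460266-125494791 (minus) and Cd63 at chr10:128900989-128912822 (plus).

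The values are scaled scores, so a level below is the mean distance of a class of cells from the gene's zero level in the fl/fl library (the lowest value, shared by most cells), in SDs of that gene. Levels can be compared between classes for a gene and not between genes. Values of the library labelled cKO had been moved: a median over genes of 55.8% of its cells sat at the fl/fl zero level and 15.2% below it. For the 9 genes the share at that level ran from 0.09% (Cd9) to 60.7% (Lpl), with 0.94% for Apoe and 24.6% for Cd63. The share below it ran from 13.2% (Gpnmb) to 35.0% (Fabp5). Shares of cells above zero are therefore given for fl/fl only, with exact 95% Clopper-Pearson intervals that cover counting error alone. Where no cell was above zero, the limit given is 3 cells of the class. Depth in molecules is unknown, and the median number of genes above zero per fl/fl cell was 108 of 2000. With 1 library per genotype no spread between replicates exists, no test was made, and every difference between libraries is a difference between these libraries.

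Cells fell into 18 classes, named from marker genes or by their leading genes where markers gave no name. The class called Macrophage-like had 543 fl/fl cells and 350 cells labelled cKO, and in fl/fl it had the highest level of 9 of its 10 measured markers, among them C1qa (2.09), Csf1r (1.60) and Arg1 (1.95). A cluster led by Vim, Atf3 and Cd14 was left unnamed. The targeted gene Ahr had a level of 0.33 in Macrophage-like fl/fl cells, with 98 of 543 cells (18.0%) above zero, and a deposited level of 0.51 in the library labelled cKO. With an estimate of the shift taken off, the local baseline used for the macrophage differences, the Ahr difference was -0.05. Which part of the Ahr transcript is removed and which part was read is not given in the sources used here, so these values do not check the genotype, and the second library is named by its label throughout.

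Some cell barcodes occurred in both libraries: 656 in all, of which 616 (93.9%) fell in the same class in each. For these pairs the median correlation over genes was 0.43, against 0.07 when each fl/fl cell was set beside the next barcode's cell instead. They made up 357 of 382 fl/fl cells (93.5%) and 354 of 357 cells labelled cKO (99.2%) of the Vim/Atf3/Cd14 cluster. In Monocyte-like cells they made up 214 of 369 (58.0%) and 218 of 344 (63.4%), and in DC-like cells 34 of 293 (11.6%) and 33 of 180 (18.3%). In Macrophage-like cells they were 4 of 543 and 6 of 350. No comparison of the libraries is made for the Vim/Atf3/Cd14 cluster, which kept 25 and 3 cells without them, and for the other classes values are given with and without them where they move.

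**Figure D1:**
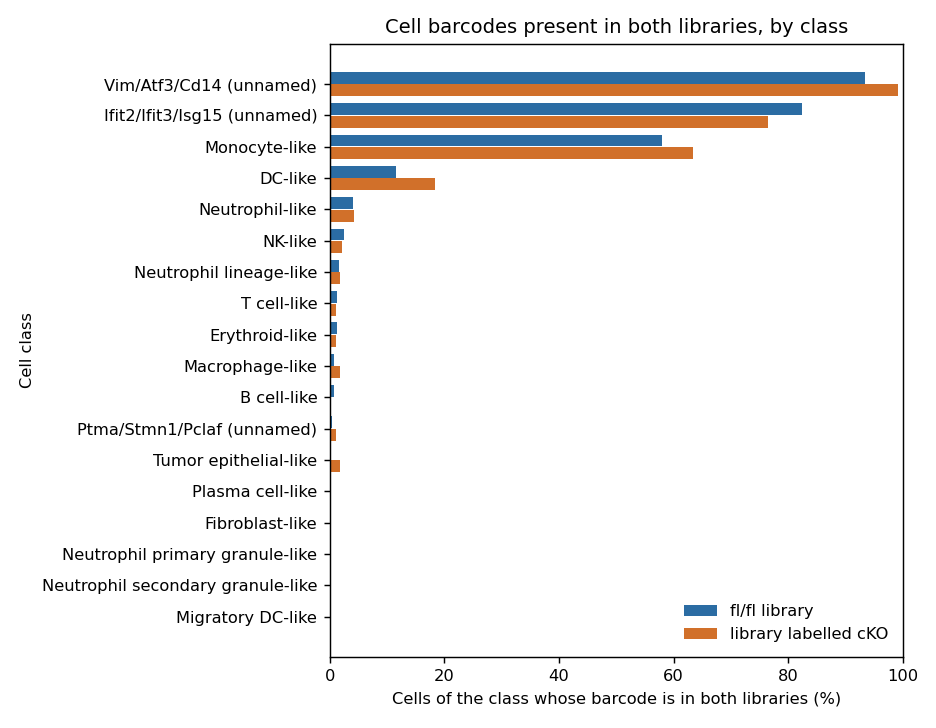
Share of the cells of each class (horizontal axis, percent) whose barcode occurs in both libraries, for the fl/fl library (blue) and the library labelled cKO (orange). The Vim/Atf3/Cd14 cluster stands at 93.5% and 99.2% and Monocyte-like cells at 58.0% and 63.4%, while Macrophage-like cells are below 2%.

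Only Trem2 and Apoe, of the 9 genes, had their highest level in Macrophage-like cells. Gpnmb, Lpl and Cd36 were highest in the Vim/Atf3/Cd14 cluster, and the other 4 were each highest in a class outside the macrophages and that cluster: Spp1 in Tumor epithelial-like, Fabp5 in Migratory DC-like, Cd9 in Neutrophil-like and Cd63 in Neutrophil primary granule-like cells. These are fl/fl levels over the 17 classes with at least 20 cells. The same class ranked first in the deposited values of the library labelled cKO for all 9 genes, among the 16 classes with at least 20 cells in each library. Both libraries were clustered together and the values labelled cKO had been moved, so this match is no independent check for any gene. For Gpnmb, Lpl and Cd36 the match says least, as 354 of 357 cells labelled cKO of the Vim/Atf3/Cd14 cluster had shared barcodes. Without these barcodes the cluster had too few cells labelled cKO to rank. Over the 15 classes left, Gpnmb (0.20) and Lpl (0.41) were highest in Macrophage-like cells of that library and Cd36 (0.43) in DC-like cells. Without the shared barcodes, the 25 fl/fl cells left in the Vim/Atf3/Cd14 cluster still had the highest Gpnmb (2.01) and Lpl (1.29), and Cd36 was highest in Erythroid-like cells (0.64) with the cluster at 0.41.

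**Figure D2:**
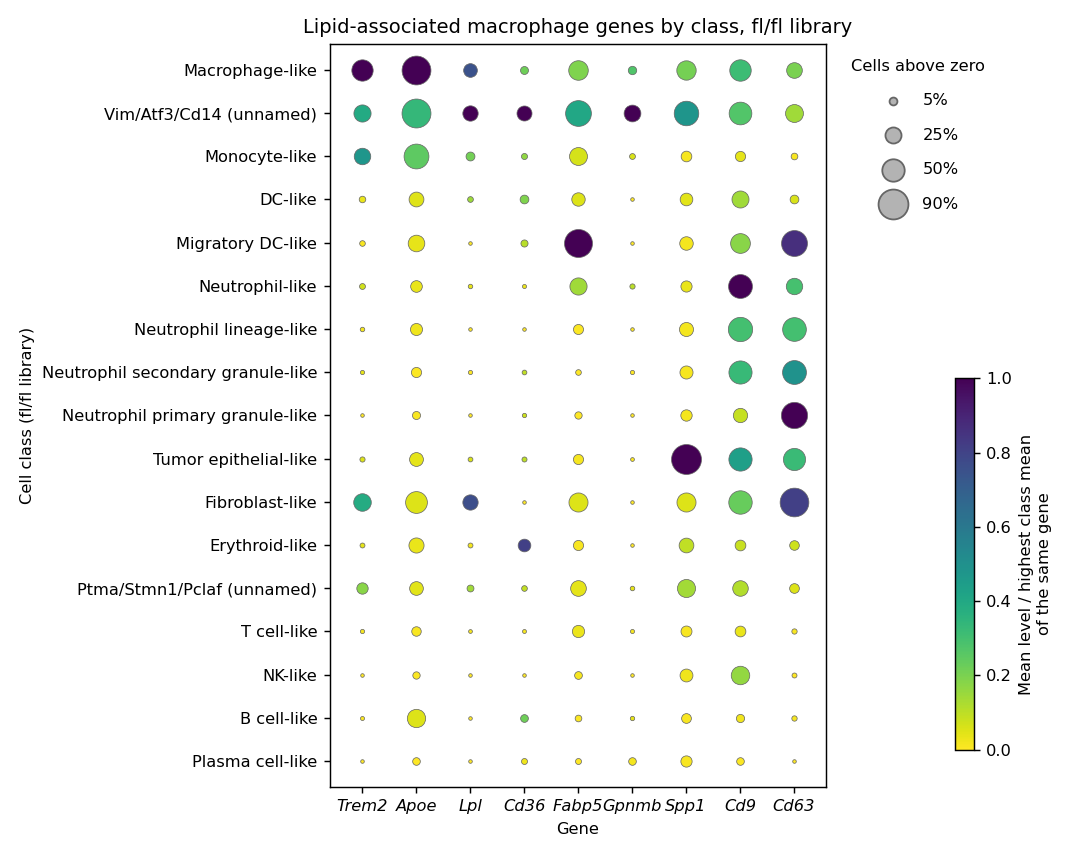
Dots give each measured gene (horizontal axis) in each class of the fl/fl library (vertical axis). Dot area grows with the percent of cells above zero and colour gives the mean level as a share of the gene's highest class mean, so that colours compare classes within a gene. Trem2 and Apoe are darkest in Macrophage-like cells (levels 1.19 and 1.61), Spp1 in Tumor epithelial-like, Fabp5 in Migratory DC-like, Cd9 in Neutrophil-like and Cd63 in Neutrophil primary granule-like cells.

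Trem2, the lipid receptor, had a level of 1.19 in Macrophage-like fl/fl cells and 1.18 in those labelled cKO, and 45.3% of the fl/fl cells were above zero (41.1% to 49.6%). Monocyte-like cells came next at 0.56 and 0.54, with 26.6% above zero, and without the shared barcodes at 0.60 and 0.57, with 32.3%. The Vim/Atf3/Cd14 cluster had 0.47 and 28.8%, and its 25 cells without a shared barcode had 0.75 and 12.0% (2.5% to 31.2%). With all cells, the intervals of Monocyte-like cells (22.1% to 31.4%) and the Vim/Atf3/Cd14 cluster (24.3% to 33.6%) overlapped, and neither overlapped that of the macrophages. Trem2 was above zero in 0.32% of B cell-like and 0.52% of T cell-like cells, and in 0 of 166 NK-like cells, which allows a share of up to 1.81%.

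Among the named classes outside the myeloid lineage, Fibroblast-like cells stood out. Trem2 was above zero in 16 of their 53 fl/fl cells (30.2%, interval 18.3% to 44.3%) at a level of 0.46, and Lpl in 22.6% at 0.62, close to its level in macrophages. These cells had a median of 238 genes above zero, the most of any class. Their summed level of the 10 macrophage markers was 0.24, against 15.3 in Macrophage-like, 0.16 in T cell-like and 0.06 in B cell-like cells. Of the 10, Csf1r and C1qb were each above zero in 8 of the 53 cells (15.1%), and the others in fewer. Possible doublets, cells with markers of 2 families of classes, were 14 of the 53. Without them Trem2 had a level of 0.45 with 28.2% above zero, and Lpl 0.63 with 17.9%. The library labelled cKO had 9 such cells and gave no value.

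Apoe, the lipoprotein component, had a level of 1.61 in Macrophage-like fl/fl cells and 2.19 in those labelled cKO. In fl/fl, 84.0% of macrophages were above zero (80.6% to 87.0%). The share was 84.3% in the Vim/Atf3/Cd14 cluster, where the level was 0.54, and 60.0% (38.7% to 78.9%) at 0.52 in its 25 cells without a shared barcode. Monocyte-like cells had 0.40 and 61.8%, or 0.31 and 57.4% without the shared barcodes. Apoe was also above zero in 33.1% of B cell-like cells, against 7.9% of T cell-like and 4.2% of NK-like cells, although B cell-like cells had fewer genes above zero (a median of 74, 105 and 108).

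Lpl, the lipase, was highest in the Vim/Atf3/Cd14 cluster at 0.81 (22.8% above zero), followed by Fibroblast-like cells at 0.62 and Macrophage-like cells at 0.61 (17.9%, interval 14.7% to 21.3%). The intervals of these 3 classes overlapped, and without the shared barcodes the cluster had 1.29 and 16.0%. In Monocyte-like cells the level was 0.17 with 6.8% above zero, and Lpl was above zero in 0 of 620 B cell-like cells, which allows a share of up to 0.484%. Cd36, the fatty acid and scavenger receptor, was above zero in 21.7% of the Vim/Atf3/Cd14 cluster at a level of 0.82. Of the 25 cells without a shared barcode, 1 had Cd36 above zero (4.0%), and their level was 0.41. It was above zero in 13 of 86 Erythroid-like cells (15.1%) at 0.66. Macrophages had Cd36 in only 5.2% of cells at 0.18, the same level as B cell-like cells (0.18, 4.8%).

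Fabp5, the fatty acid carrier, stood far above the rest in Migratory DC-like cells, at 3.18 in 52 fl/fl cells and 2.51 in 22 cells labelled cKO. Of the fl/fl cells, 78.8% were above zero (65.3% to 88.9%). The Vim/Atf3/Cd14 cluster followed at 1.28 (66.5%, or 1.48 and 48.0% without the shared barcodes) and Macrophage-like cells at 0.62 (37.8%), and in Neutrophil-like cells the level was 0.46 (28.9%). Gpnmb was the most restricted of the genes by class. It was above zero in 27.5% of the Vim/Atf3/Cd14 cluster, at a level of 1.11, in 5.9% of Macrophage-like cells, at 0.31, and in no more than 4.7% of any other class. Of the 25 fl/fl cells of that cluster whose barcode was not shared, 24.0% had Gpnmb above zero, with an interval of 9.4% to 45.1%.

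Spp1, the secreted matrix protein, was mainly a tumor cell transcript here: 90.5% of Tumor epithelial-like fl/fl cells were above zero (88.2% to 92.4%) at a level of 1.61, and the level was 1.31 in the library labelled cKO. The Vim/Atf3/Cd14 cluster had 0.77 (60.2%, or 0.81 and 32.0% without the shared barcodes) and Macrophage-like cells 0.34 (37.0%, interval 32.9% to 41.2%). Monocyte-like cells were at 0.02 with 10.3%. This lies between the shares of the lymphoid classes (8.4% of B cell-like, 11.0% of T cell-like and 15.7% of NK-like cells), so no expression in monocytes is read from it. Monocyte-like cells had a median of 119 genes above zero, against 74, 105 and 108 in these 3 lymphoid classes.

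The tetraspanins had their highest levels in granulocyte classes. Cd9 had a level of 1.88 in Neutrophil-like fl/fl cells (57.0% above zero) and 1.99 in those labelled cKO, then 0.83 in Tumor epithelial-like (53.8%) and 0.61 in Neutrophil secondary granule-like cells (53.4%). Macrophage-like cells had 0.59 (45.7%), between these and the Neutrophil lineage-like (0.56, 59.1%) and Neutrophil primary granule-like cells (0.16, 19.6%). The shares of the first 4 classes ran from 45.7% to 57.0%, while the level in Neutrophil-like cells stood well above the other 3. Cd63, which sits in granule and late endosome membranes, was highest in Neutrophil primary granule-like cells, with 2.13 in fl/fl (69.0% above zero) and 2.19 in the library labelled cKO. Migratory DC-like cells (1.84, 67.3%), Fibroblast-like cells (1.73, 83.0%) and Neutrophil secondary granule-like cells (1.06, 56.9%) came next, and Macrophage-like cells (0.43, 23.8%) ranked 8th.

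The genes were found together in the same cell in few classes. At least 4 of the 9 were above zero in 201 of 543 Macrophage-like fl/fl cells (37.0%, interval 32.9% to 41.2%), and at least 6 in 55 (10.1%). In the Vim/Atf3/Cd14 cluster the share with at least 4 was 53.9%, or 8 of 25 cells (32.0%) without the shared barcodes. It was 43.4% in Fibroblast-like, 15.4% in Migratory DC-like, 13.5% in Tumor epithelial-like and 4.6% in Monocyte-like cells. One of 771 T cell-like cells reached 4 (0.13%), and 0 of 166 NK-like cells did, which allows up to 1.81%. Cells with more genes read reach 4 more easily: the class medians of genes above zero were 153 in the cluster, 238 in fibroblasts, 141 in macrophages, 147 in epithelial cells and 105 in T cells.

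Within the macrophages the genes did not rise and fall as a block. Over the 543 fl/fl cells, the highest of the 36 Pearson correlations was Apoe with Cd63, at 0.46, followed by Trem2 with Apoe at 0.28, Fabp5 with Gpnmb at 0.23 and Spp1 with Cd9 at 0.22. The lowest was Cd9 with Apoe, at -0.13. Most other Pearson values were near 0, where sparse values show little. The order of the pairs depended on the measure. By Spearman the highest were Spp1 with Cd9 (0.35), Apoe with Cd63 (0.34) and Fabp5 with Apoe (0.30), and Cd9 with Apoe stayed lowest (-0.16). Cells of 1 library can differ in depth. The Pearson correlation with the number of genes above zero per cell was -0.05 for Apoe and -0.11 for Cd63. By Spearman it was 0.01 and 0.11 for these, and highest for Cd9 (0.37), Trem2 (0.36) and Lpl (0.34). The part of depth in the pairs was not tested.

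**Figure D3:**
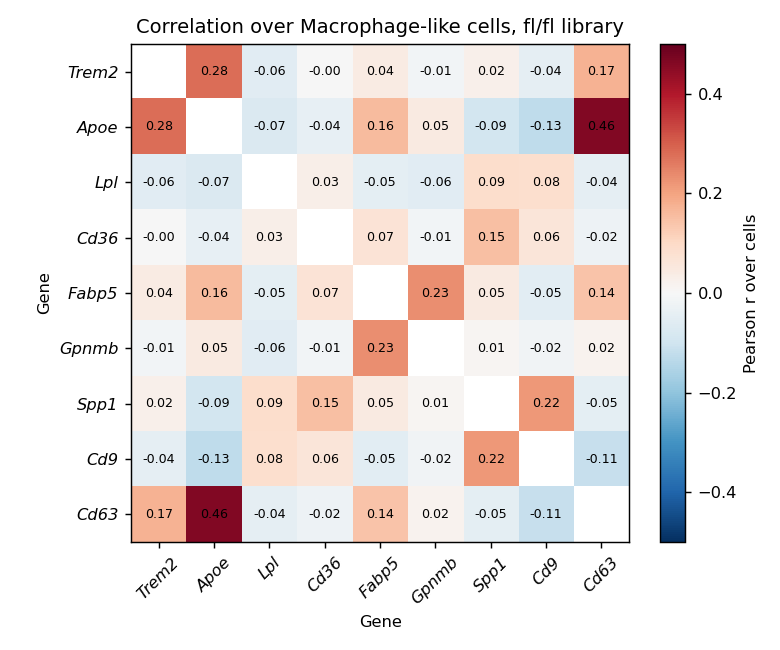
Pearson correlation of each pair of genes over 543 Macrophage-like cells of the fl/fl library, with blue for negative and red for positive values. Apoe with Cd63 (0.46) and with Trem2 (0.28) is reddest, and Cd9 with Apoe (-0.13) is lowest.

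Finer clustering split the macrophages by complement and arginase genes, and the lipid genes were divided between the resulting subclusters. One was led by C1qa, C1qc and C1qb (292 fl/fl cells and 178 labelled cKO), the other by Arg1, Fn1 and AA467197 (245 and 170). The 9 genes had no part in the clustering. In fl/fl, 4 genes had the higher level in the C1q subcluster: Apoe (2.43 against 0.66), Cd63 (0.66 against 0.17), Trem2 (1.30 against 1.08) and Fabp5 (0.65 against 0.58). The other 5 were higher in the Arg1/Fn1 subcluster: Spp1 (0.65 against 0.07), Cd9 (0.97 against 0.27), Gpnmb (0.53 against 0.12), Cd36 (0.34 against 0.05) and Lpl (0.78 against 0.45). Apoe was above zero in a similar share of both, 86.3% and 81.6%. For Trem2 the order by share was the opposite of that by level, 40.1% in the C1q and 52.2% in the Arg1/Fn1 subcluster, and for Spp1 both pointed the same way, 23.3% and 53.9%. The Arg1/Fn1 subcluster had more genes above zero per cell (a median of 192 against 112), which moves with its higher shares, and the part of depth in them was not tested.

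Between the libraries, 4 of the 9 genes were higher by at least 0.1 in the Macrophage-like cells labelled cKO, 1 was lower, and the median difference was 0.002. Of all 2000 genes, 8.45% were higher and 3.55% lower in the same class, and the median was 0. All 9 genes were above zero in at least 5% of its fl/fl cells, and of the 687 genes of which that was true 18.6% were higher and 8.3% lower. The direction rests on the label, since Ahr itself was not lower in the deposited values. Apoe was higher by 0.58 (1.61 and 2.19) and Cd63 by 0.34 (0.43 and 0.77). Spp1 was higher by 0.14 (0.34 and 0.47) and Cd36 by 0.11 (0.18 and 0.29). Lpl was lower, at 0.45 against 0.61, a difference of -0.15. By means, Trem2, Cd9, Fabp5 and Gpnmb lay within 0.1, with -0.00, 0.00, -0.03 and -0.08. By medians over cells Cd63 was at 0.04, Lpl at -0.04 and Trem2 at 0.32. Most fl/fl cells were at zero for these genes (45.3% above zero for Trem2, 23.8% for Cd63 and 17.9% for Lpl). Their fl/fl median was thus the zero level, so the medians show where the moved values lay and are not read as expression. Without the shared barcodes, Gpnmb passed the limit at -0.10, Cd36 dropped under it at 0.09, and 3 genes were higher and 2 lower.

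How far the deposited values were moved bears on each of these. A local baseline (the 0.3 quantile of a gene's values among the 30 most similar cells labelled cKO) was subtracted for genes with fewer than 40% of the fl/fl cells above zero, which left 6 of the 9 genes with an estimate. Of these, 2 were then higher and 1 lower. Cd63 kept a difference of 0.12 and Spp1 had 0.09, Cd36 0.04, Fabp5 -0.07 and Gpnmb -0.11. Lpl turned from -0.15 to 0.22. For Apoe, Trem2 and Cd9 no such estimate could be made. The summed level of the 10 macrophage markers was also higher in the class as deposited, 18.1 against 15.3. C1qc was higher by 0.63 and C1qa by 0.49, and Aif1 alone was lower (1.70 and 1.52, a difference of -0.19). With the baseline removed, the markers with an estimate were Mrc1 (0.30), Pf4 (0.09) and Ms4a7 (-0.05). The part of the markers in the Apoe and Cd63 differences was not tested.

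**Figure D4:**
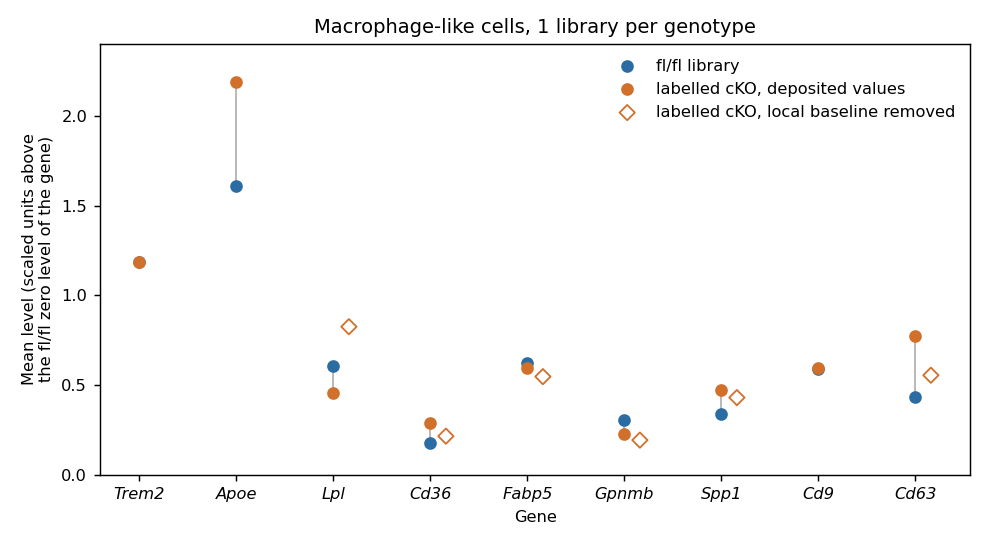
Mean level of each gene in Macrophage-like cells (vertical axis, scaled units above the fl/fl zero level) in the fl/fl library (blue) and the library labelled cKO, as deposited (orange) and with the local baseline removed (open diamonds, 6 genes). Apoe goes from 1.61 to 2.19 and Trem2 is at 1.19 and 1.18, and the diamond of Lpl lies on the other side of its fl/fl value from the deposited point.

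The flat Trem2 value of the class covered opposite differences of the deposited values in its subclusters. In the C1q subcluster Trem2 was 1.30 in fl/fl and 1.53 in the library labelled cKO (0.23 higher), and in the Arg1/Fn1 subcluster it was 1.08 and 0.84 (-0.24). Fabp5 went the same ways, with 0.65 and 0.80 (0.15 higher) and with 0.58 and 0.37 (-0.22). For Trem2 no baseline estimate could be made in either subcluster. In the C1q subcluster 40.1% of fl/fl cells were above zero for Trem2, so its fl/fl median was the zero level. The difference of medians there was 0.42, which shows where the moved values lay. The larger Apoe difference was in the C1q subcluster, and so was that of Cd63: Apoe was 2.43 and 3.51 (1.08 higher) and Cd63 0.66 and 1.41 (0.75 higher, or 0.24 with the baseline removed). In the Arg1/Fn1 subcluster Apoe was 0.66 and 0.79 (0.12 higher) and Cd63 0.17 and 0.10. Lpl was lower in both (-0.19 and -0.13), and both turned with the baseline removed (0.28 and 0.14). Gpnmb was lower in the Arg1/Fn1 subcluster (0.53 and 0.30, a difference of -0.23, or -0.31 with the baseline removed), and Spp1 was higher there (0.65 and 0.87). In all, 4 genes were higher and 1 lower in the C1q subcluster, where 11.4% and 7.3% of all genes were, and 2 were higher and 4 lower in the Arg1/Fn1 subcluster, where 8.9% and 5.85% were. That the subclusters differ in these differences was not tested.

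These subcluster values depended on how the macrophages were divided. With 15 principal components the Trem2 differences were 0.11 and -0.09 and those of Apoe 0.99 and 0.19. When the lipid genes took part in the clustering, the C1q subcluster was led by Apoe and held 80 fl/fl and 99 labelled cKO cells. There Apoe was 6.23 in fl/fl and 5.23 in the library labelled cKO (-0.99) and Trem2 2.65 and 2.12 (-0.53), so both directions turned. Cd63 was higher by 0.67 in that setting too. Its difference in the C1q subcluster ran from 0.52 to 0.78 over the 4 alternatives tried, while that of Apoe ran from -0.99 to 1.12. In the Arg1/Fn1 subcluster the Apoe difference ran from 0.13 to 0.19 over them and that of Cd63 from -0.07 to 0.23.

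**Figure D5:**
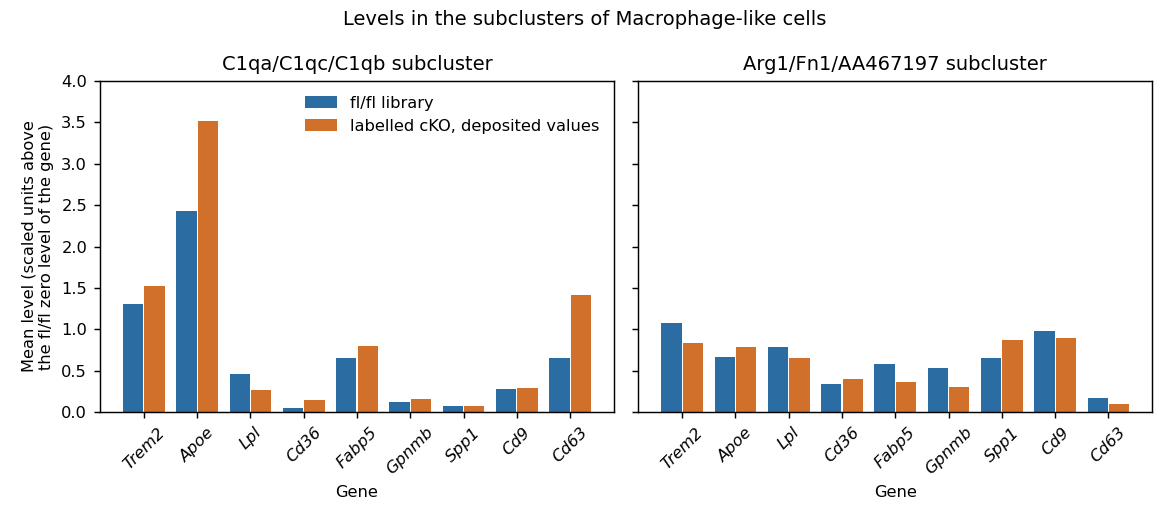
Bars give the mean level of each gene (vertical axis, scaled units above the fl/fl zero level) in the C1q subcluster (left) and the Arg1/Fn1 subcluster (right), in the fl/fl library (blue) and the library labelled cKO as deposited (orange). Apoe is at 2.43 and 3.51 in the left panel and at 0.66 and 0.79 in the right, and Trem2 is higher in orange on the left (1.53) and lower on the right (0.84).

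Outside the macrophages, single genes differed between the libraries in some of the other classes compared. In Tumor epithelial-like cells Spp1 was lower in the library labelled cKO (1.61 and 1.31, a difference of -0.29) and Cd9 was higher (0.83 and 1.24, a difference of 0.42). With subclusters weighted as in fl/fl, the Cd9 difference was 0.19, and Cd63 and Gpnmb were higher by 0.28 and 0.22. For Gpnmb, 1 of 775 fl/fl cells was above zero. Its unweighted level in the library labelled cKO was 0.058 with all 178 cells and 0.004 in the 175 without a shared barcode. The class held 775 and 178 cells, and 29.3% of all genes were higher and 12.5% lower in it, so large differences were common there. In Neutrophil secondary granule-like cells Cd63 was higher by 0.34 (1.06 and 1.40) and Cd9 lower (0.61 and 0.39, -0.22), where 10% of genes were higher and 6.55% lower. At clustering resolution 2 its cluster of 204 and 84 cells was kept. The class also took in a cluster of 122 and 141 cells led by Ifitm6, Ltf and Lcn2. In this larger class the differences were 0.07 and -0.09, under the limit. In Neutrophil-like cells Cd9 and Cd63 were higher by 0.11 and 0.12, beside 5.8% of genes higher, and with the baseline removed the Cd63 difference was -0.00. The Cd9 difference was -0.00 at resolution 2 and 0.25 with subclusters weighted as in fl/fl.

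Of the 9 genes, Cd36 passed 0.1 in the largest number of the classes compared (5, macrophages included). It was higher in DC-like cells labelled cKO (0.16 and 0.35, a difference of 0.20, or 0.16 with the baseline removed), where 9.65% of all genes were higher. Without the shared barcodes its DC-like levels were 0.18 and 0.43. In B cell-like cells it was higher by 0.19 (0.18 and 0.37), and 0.03 was left with the baseline removed. In that class 3.85% of genes were higher and 2.45% lower. In Erythroid-like cells it was lower, at 0.18 against 0.66 (a difference of -0.48, or -0.23 with the baseline removed), in a class of 86 and 94 cells where 13% of genes were lower. By medians over cells it was -0.03, with the fl/fl median at the zero level. Erythroid-like cells also had Lpl higher by 0.12 (0.07 without possible doublets), beside 20.8% of genes, and Spp1 lower, with a difference of -0.12. In the unnamed Ptma/Stmn1/Pclaf cluster of cycling-gene cells, Fabp5 was higher by 0.20 and Trem2 by 0.12, and Spp1 and Cd36 were lower, with differences of -0.14 and -0.12. With the baseline removed Trem2 was at 0.05 and Cd36 at -0.01. There 12.8% of all genes were higher and 12.8% lower.

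With all cells, none of the 9 genes passed 0.1 in Monocyte-like cells, where 3.8% of all genes were higher and 1.95% lower. This class shared most of its barcodes. Without the shared barcodes Lpl did pass the limit there, with 0.13 in fl/fl (155 cells) and 0.27 in the library labelled cKO (126 cells). Leaving them out also took Cd9 in DC-like cells past it, from 0.27 and 0.37 to 0.29 and 0.42. With all cells, none of the 9 passed it in T cell-like (2.75% higher and 8.85% lower), NK-like (7.5% and 6.35%) or Neutrophil lineage-like cells (6.2% and 2.95%).

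Other genes of lipid handling, lysosomes and phagocytes were read from a list of 86, of which 31 were measured. In Macrophage-like cells 12 were higher by at least 0.1 in the library labelled cKO, 2 were lower, and their median difference was 0.03, beside the 8.45% and 3.55% of all genes and their median of 0. Most of the 31 were above zero in at least 5% of its fl/fl cells, and of the 687 such genes 18.6% were higher and 8.3% lower. With the baseline removed, 8 of the 21 with an estimate were higher and 2 lower, beside 208 and 29 of 1872 among all genes. The highest differences were those of Itga9, an integrin (0.70 and 1.16, a difference of 0.46), the lysosomal proteases Lgmn (1.50 and 1.89, 0.39) and Ctsl (0.96 and 1.35, 0.39), the tetraspanin Cd81 (0.36), the phagocytic receptor kinase Axl (0.25) and the integrin Itgb1 (0.25). With the baseline removed Itga9 was at -0.04, Cd81 at 0.05 and Axl at -0.23, so 2 of these 3 changed direction, and the other 3 had no estimate. The lowest were Idi1, of isoprenoid synthesis (-0.16), the ferritin chain Fth1 (-0.13), the phospholipid transfer protein Pltp (-0.099), Acsl1 (-0.09), Anxa2 (-0.07) and the scavenger receptor Msr1 (-0.05). Idi1 and Pltp turned to 0.08 and 0.25 with the baseline removed. In fl/fl, each on the scale of its own gene, Lgmn had a level of 1.50 in the class, Msr1 1.36, Axl 1.16, the lipoprotein receptor Lrp1 1.09, Fth1 1.01 and Ctsl 0.96, and of these Fth1 and Ctsl were higher in the Vim/Atf3/Cd14 cluster (2.13 and 1.44).

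The genes whose class pattern was most like each of the 9 were sought among 1840 genes by the Pearson correlation of cluster means over 21 fl/fl clusters, which share 1 library. Trem2 was most like Apoe (0.93), Ccl24 (0.92) and Ctsc (0.92), and Apoe most like Nr1h3 (0.98), which encodes the oxysterol receptor LXR alpha, Ms4a7 (0.97) and C1qb (0.97). Lpl was most like Ctsl (0.96), Dab2 (0.91) and Lgmn (0.89), and Gpnmb most like Hmox1 (0.96), Plk2 (0.95) and Ccl7 (0.95). Fabp5 was most like Pfkfb3 (0.99), Nr4a3 (0.94) and Gpr137b (0.93). The genes with their peak outside the macrophages had other neighbours. Spp1 was most like Wwc1 (0.96), Cgnl1 (0.94) and Fosl1 (0.94), and Cd9 most like Neat1 (0.93), Tnfrsf23 (0.93) and Ier3 (0.89). Cd36 and Cd63 had no close match, with Rsad2 at 0.80, Trim10 at 0.70 and Tmcc2 at 0.70 for Cd36, and Dstn at 0.75, Anxa3 at 0.70 and Alas1 at 0.70 for Cd63.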

How the data were processed

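The submitters' processing notes name Seurat 3.1.4, Cell Ranger 3.0.0 and the build mm10/GRCm38, without their role or order. The authors deposited a scaled score for 2000 genes in 9773 cells (maximum 10, minimum -25.91) and, as a second score, UMAP coordinates, which were not used. No raw count was used, so no count model was run. That the values of the library labelled cKO were moved toward fl/fl, as in batch integration, was inferred from the values and is stated in no source used here. The members, lists and comparisons were chosen with earlier results of these data known.

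Cells were assigned to libraries by name suffix. The tools were leidenalg 0.10.2, igraph 0.11.9, scikit-learn 1.9.0, scipy 1.17.1, pandas 2.3.3, numpy 2.4.6 and matplotlib 3.10.9 in Python 3.11.15. Both libraries were clustered together on 30 principal components of the genes other than the members, with 15 neighbours and Leiden resolution 1 (2 for subclusters). A cluster was named when its best marker list differed by at least 0.5 on average, the next was below 0.5 times that, at least 3 markers were measured, an own marker was among its 20 leading genes, and markers of other classes did not outnumber its own among its 10 leading genes. These limits, and leaving the members out, were chosen after seeing the data. Possible doublets (207 fl/fl cells, 3.98%, and 123 labelled cKO, 2.69%) were kept except in 1 alternative. A class was compared with at least 50 cells per library, and a difference counted from 0.1. The scripts were tested on simulated data, but the accuracy of the baseline estimate on these files is unknown. The text names every measured member, the 3 most similar genes of each, and, of the other list, the 6 highest and 6 lowest differences and the 6 highest levels in Macrophage-like cells. The result of a further marker gene is not reported here.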

Additional observations from a re-analysis of the deposited data

Results flagged for a closer look

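Some genes differed between the libraries in opposite directions in different classes (library labelled cKO minus fl/fl). None of these contrasts was tested, as each class has 1 library per genotype. Spp1 was at 0.14 in Macrophage-like cells and -0.29 in Tumor epithelial-like cells. Cd9 was at 0.42 in Tumor epithelial-like cells (0.19 with subclusters weighted as in fl/fl) and -0.22 in Neutrophil secondary granule-like cells. The second was -0.09 at clustering resolution 2, where that class took in a further cluster. Lpl was at 0.12 in Erythroid-like and -0.15 in Macrophage-like cells, and the second of these turned to 0.22 with the local baseline removed. The first was under the limit of 0.1 without possible doublets, in a class with 1 of 86 fl/fl cells above zero for Lpl. Cd36 was at 0.20 in DC-like cells (0.10 with subclusters weighted as in fl/fl) and -0.48 in Erythroid-like cells (-0.23 with the baseline removed).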

How the results depend on the processing

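No paired analysis was possible because each genotype has 1 library. Of the counts in Macrophage-like cells (4 members higher, 1 lower), the number higher was 2 with the local baseline removed (6 genes), 2 with that and without the shared barcodes, 2 with subclusters weighted as in fl/fl, and 2 at a limit of 0.2. The number lower was 0 at 0.2, 2 at 0.05, 2 without the shared barcodes and 0 with medians over cells, which gave a median member difference of 0.113. For every member but Apoe the fl/fl median was the zero level, so medians mostly show where the moved values lay. Single differences changed direction as follows. Lpl in Macrophage-like cells was 0.217 with the baseline removed and 0.190 with the shared barcodes left out too, and with the baseline removed it was 0.282 in the C1q and 0.135 in the Arg1/Fn1 subcluster. In Neutrophil-like cells Cd9 was -0.0038 at resolution 2 and Cd63 -0.00014 with the baseline removed. Cd9 in Neutrophil secondary granule-like cells was 0.079 by medians over cells. With members included in the clustering, Trem2 was -0.530, Fabp5 -0.0857 and Apoe -0.994 in the C1q subcluster, and Gpnmb 0.0368 in the Arg1/Fn1 subcluster. The cause was not tested. The settings without shared barcodes, with members in the clustering, for the subclusters and with both baseline and barcodes removed were chosen after seeing the data. At least 2 of the 3 most similar genes of a member were kept for 5 of the 9 members over clusters at resolution 2, for 4 without the shared barcodes and for 0 with Spearman correlation. Leaving out replicates was not possible with 1 library each. Depth in molecules is unknown, so shares of cells cannot be set right for it.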
